A study of Mus musculus with 50 samples.

Results

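The netrin-G genes Ntng1 and Ntng2 and the netrin-G ligand (NGL) genes Lrrc4c, Lrrc4 and Lrrc4b were described by the accessible peaks that overlapped the span of each gene or lay within 2 kb of it. These 5 genes held 115 of the 144465 merged peaks of the count table, 24 at Ntng1, 70 at Lrrc4c, 12 at Ntng2, 3 at Lrrc4 and 6 at Lrrc4b, and all 115 were tested at both time points. The assay was ATAC-seq, which cuts and tags DNA where the chromatin is open, on NeuN+ neuronal nuclei that were sorted out of the ventral hippocampus, taken from a single side of the brain. All mice were test-naïve C57BL/6JRj males, whose dams came from 1 breeding population and were sent while pregnant to 5 rearing facilities (RF1 to RF5). From each RF, 5 mice were killed in the common test laboratory at 14 weeks of age (TP2), and a littermate of each had been killed in the RF at 8 weeks (TP1), which gave 10 groups and 50 libraries of 1 mouse each. The question was whether accessibility at these genes differed between RFs, and whether the differences were the same at both time points. Since amplification and sequencing took 1 batch per time point, time point and batch cannot be told apart, and only the differences between RFs within a time point, and the change in those differences, were tested. Females and other strains were not analysed here.

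Netrin-Gs are relatives of the secreted netrins that stay bound to the axonal membrane by a lipid anchor. Each binds its own ligand on the dendrite of the partner neuron: netrin-G1 (Ntng1) binds NGL-1 (Lrrc4c), and netrin-G2 (Ntng2) binds NGL-2 (Lrrc4). NGL-3 (Lrrc4b) binds instead the receptor tyrosine phosphatases of the LAR family (Ptprf, Ptprd and Ptprs). The NGLs carry leucine-rich repeats outside the cell, bind the scaffold protein PSD-95 (Dlg4) inside it, and take part in forming excitatory synapses, in the hippocampus within particular dendritic layers.

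The promoter windows of the 5 genes are shown because the promoter peaks are where the genes are compared with each other. Each runs from 250 bases before to 50 bases after the annotated transcription start, 5′ to 3′ on the gene's own strand, as RefSeq gives it for GRCm38.p6, with every CG dinucleotide (which reads the same on both strands) in capitals.
Ntng1: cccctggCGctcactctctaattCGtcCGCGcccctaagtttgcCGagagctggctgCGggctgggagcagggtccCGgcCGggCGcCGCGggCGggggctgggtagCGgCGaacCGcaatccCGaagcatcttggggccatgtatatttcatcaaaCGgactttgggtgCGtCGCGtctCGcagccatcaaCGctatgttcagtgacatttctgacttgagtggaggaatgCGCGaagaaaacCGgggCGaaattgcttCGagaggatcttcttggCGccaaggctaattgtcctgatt
Lrrc4c: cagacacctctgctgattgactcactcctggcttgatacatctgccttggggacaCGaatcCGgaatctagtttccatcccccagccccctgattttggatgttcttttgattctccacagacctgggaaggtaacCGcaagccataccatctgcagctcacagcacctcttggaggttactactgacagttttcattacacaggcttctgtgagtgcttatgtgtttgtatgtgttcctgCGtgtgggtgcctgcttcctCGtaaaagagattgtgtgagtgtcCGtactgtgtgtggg
Ntng2: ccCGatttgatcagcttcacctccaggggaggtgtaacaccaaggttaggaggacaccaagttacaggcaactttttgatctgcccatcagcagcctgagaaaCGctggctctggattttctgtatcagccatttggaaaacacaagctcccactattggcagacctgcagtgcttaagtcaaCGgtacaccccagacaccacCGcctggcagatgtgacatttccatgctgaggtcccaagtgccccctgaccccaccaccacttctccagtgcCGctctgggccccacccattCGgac
Lrrc4: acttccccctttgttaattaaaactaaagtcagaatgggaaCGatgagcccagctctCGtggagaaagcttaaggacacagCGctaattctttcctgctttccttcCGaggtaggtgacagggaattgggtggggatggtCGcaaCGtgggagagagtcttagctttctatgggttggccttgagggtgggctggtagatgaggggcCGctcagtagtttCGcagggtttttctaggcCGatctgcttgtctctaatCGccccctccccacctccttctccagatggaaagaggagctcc
Lrrc4b: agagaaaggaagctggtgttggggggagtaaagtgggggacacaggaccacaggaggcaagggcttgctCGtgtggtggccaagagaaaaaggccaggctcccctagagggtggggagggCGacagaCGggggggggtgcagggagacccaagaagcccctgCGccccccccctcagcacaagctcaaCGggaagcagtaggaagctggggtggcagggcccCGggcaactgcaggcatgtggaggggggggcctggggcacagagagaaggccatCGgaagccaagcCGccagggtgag
The windows lie at chr3:110143423-110143722 (minus strand), chr2:96317919-96318218 (plus), chr2:29248050-29248349 (minus), chr6:28831698-28831997 (minus) and chr7:44442237-44442536 (plus). Ntng1 stood apart with 28 CG dinucleotides, a number that 14.01% of 27025 mouse promoter windows of that length reach. Lrrc4 had 10 (43.9% of windows have as many), Lrrc4b 8 (49.03%), and Lrrc4c and Ntng2 6 each (56.4%). The share of G and C was 66.3% in Lrrc4b, 59.7% in Ntng1, 55% in Ntng2, 52.7% in Lrrc4 and 50% in Lrrc4c. The windows of Ntng1, Lrrc4c, Lrrc4 and Lrrc4b lay whole within a peak. That of Ntng2 touched none, and the nearest peak, 704 bases inside the gene, is taken below as its promoter peak.

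The libraries held 5111223 to 36401717 counts in peaks at TP2 (median 26030443) and 33663505 to 77396321 at TP1 (median 44453692). Levels are given as CPM, the counts of a peak per 1000000 counts of the library, with edgeR's TMM factors, which assume that most peaks do not differ. In 20 of 100 pairs of libraries of 1 group the counts differed by no more than sampling noise. Libraries were counted as 1 sample in means and SDs (n = 3 to 5) only where all pairs among them did so, which left some of these pairs apart. The tests used all 5 libraries. At TP2, replicates 3 and 5 of RF1 and replicate 5 of RF2 were nearer to the mean of another RF than to that of their own, as was replicate 5 of RF2 at TP1. Both replicates 5 were nearest to RF5 at TP2, with an r of 0.42 for RF1 (-0.36 with its own RF) and 0.39 for RF2 (-0.22). Replicate 3 of RF1 was nearest to RF2 (0.013, own -0.11). By their titles, replicate 5 of RF1 and replicate 5 of RF2 at TP2 are T25 and T4. At TP1 the titles S25 and S4 belong to RF5. Whether labels were exchanged was not tested, and the levels and folds of single peaks at TP2 include these libraries. Counts over all members, and DARs of RF1 and RF3, that move by over 1.5 times at TP2 are also given without those 3 TP2 libraries. Neuronal promoters were open: per kb of peak, Slc17a7, the vesicular glutamate transporter of excitatory neurons, had a median of 21.4 CPM and Rbfox3, which codes for NeuN, 8.18 CPM. The lowest median among neuronal and hippocampal markers was 3.53 CPM (Prox1). Non-neuronal markers had medians of 1.71 (Olig2) to 4.42 CPM (Aif1 of microglia), so the 2 sets overlapped. Of the marker genes with a known transcription start, 5 of 5 neuronal, 3 of 3 astrocyte, 2 of 3 microglial, 1 of 4 oligodendrocyte and 1 of 2 endothelial genes had a promoter peak, and list genes with no start in the reference were not matched. The peaks of Gfap, P2ry12, Aif1 and Cldn5 did not reach the start and lay 949, 751, 1462 and 189 bases from it. The summed astrocyte promoters had group means of 16.3 to 20.7 CPM at TP2, and at TP1 22.4 CPM in RF1, 18.96 in RF2, 22.8 in RF3, 14.4 in RF4 and 14.1 in RF5. They were thus higher in RF1 than in RF4 and RF5 at TP1, as the promoters of Ntng1 and Lrrc4c were, and highest in RF3, where those 2 promoters were lower than in RF1. The summed neuronal promoters were 183 CPM in RF1, 172 in RF2, 180 in RF3, 146 in RF4 and 183 in RF5 at TP1. Those of hippocampal neurons were 68.4, 65.3, 69.9, 52.6 and 70.2 CPM in the same order. The oligodendrocyte promoter (Olig2) had 0.875 to 2.39 CPM at TP2 and 1.74 to 3.27 CPM at TP1. The summed microglial promoters had group means of 14.9 to 17.2 CPM at TP2 and 16.3 to 18.01 CPM at TP1. The part of these cell types in the results was not tested. A difference in the share of a cell type and one in accessibility per nucleus cannot be told apart in such libraries.

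The promoters fell into a more and a less open set. Per kb of peak, Lrrc4 had library medians of 15.6 CPM at TP2 and 17.3 CPM at TP1, and Lrrc4b had 11.2 and 13.7 CPM. Ntng1 had 5.58 and 4.33 CPM, Lrrc4c 5.35 and 4.37 CPM, and Ntng2 3.64 and 4.59 CPM. The library ranges of Lrrc4 and Lrrc4b overlapped at both time points, as did those of Ntng1, Lrrc4c and Ntng2, and each of the first set lay above each of the second. Over all 115 peaks, most of them inside the genes, the median of the mean levels was 4.33 CPM, against 3.98 CPM over all merged peaks. Lrrc4c is a very long gene (1314 kb) with no other protein-coding gene within 1 Mb, and peaks covered 9.99% of it. A peak was called over 8 of its 70 peaks in each of the 50 libraries and over 32 in fewer than 25.

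Accessibility of the member peaks depended on RF (FDR below 0.01 in the test over all RFs) at 53 of 115 peaks at TP2, or 46.1%, against 30.8% of all peaks tested. At TP1 it did so at 75, or 65.2%, against 59.1% of all peaks. A differentially accessible region (DAR) between 2 RFs was a peak with an FDR below 0.01 and a log2 fold change of 0.5 or more in either direction. Such a difference in at least 1 pair of RFs was found at 37 member peaks at TP2 (21% of all peaks) and at 56 at TP1 (38.6%). Without the 3 TP2 libraries, 61 member peaks were DARs at TP2, and without replicate 2 30 depended on RF at TP2, while the shares of all peaks were 36.1% and 16.1%. With libraries within sampling noise summed, 29 member peaks depended on RF at TP2, against 15% of all peaks. The differences between RFs changed with time point (interaction FDR below 0.01) at 86 member peaks, against 54.4% of all peaks. These were 52 of 70 peaks at Lrrc4c, 14 of 24 at Ntng1, 12 of 12 at Ntng2, 2 of 3 at Lrrc4 and 6 of 6 at Lrrc4b. Peaks of 1 gene are neighbours on a chromosome and are not independent of each other.

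**Figure D1:**
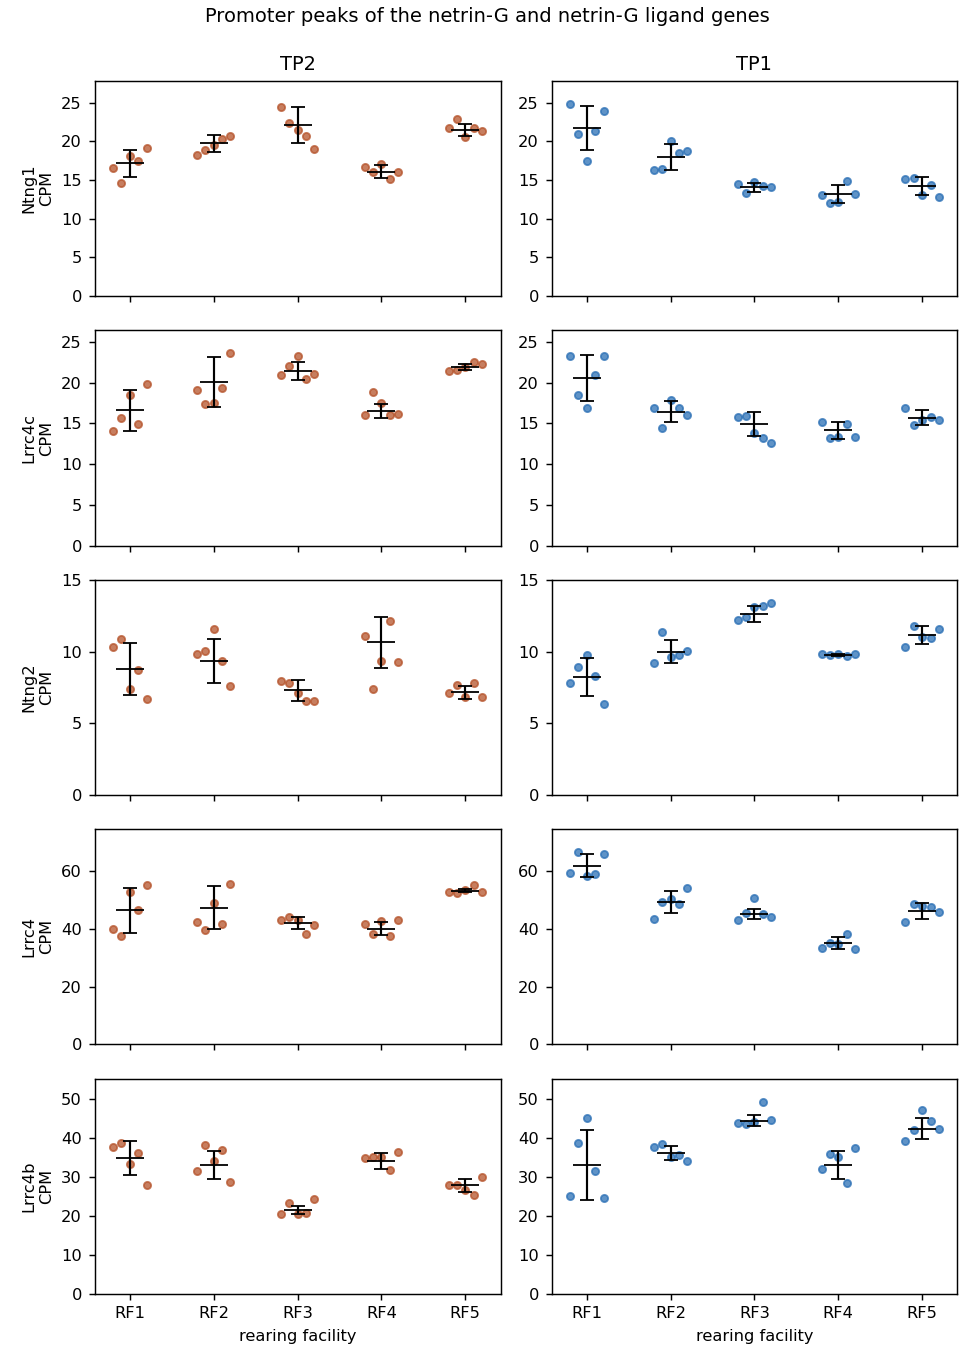
Accessibility of the promoter peak of each gene (rows) in CPM on the y axis, by rearing facility on the x axis, at TP2 (left) and TP1 (right). Each point is 1 library, and the black marks are the mean and SD over samples (n = 3 to 5). At TP1 the RF1 libraries lie above those of RF3 for Ntng1 and Lrrc4c and below them for Ntng2, and at TP2 the RF1 libraries of Lrrc4c lie below those of RF3.

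Ntng1, on chromosome 3, codes for netrin-G1, and its promoter was more open in RF1 than in RF3, RF4 and RF5 at TP1 and less open in RF1 than in RF3 at TP2. At the promoter peak (chr3:110141012-110144443) the libraries had 16.5, 14.6, 18.1, 17.4 and 19.2 CPM in RF1 and 24.5, 22.4, 21.5, 20.7 and 19.04 CPM in RF3 at TP2. At TP1 they had 24.8, 20.98, 17.5, 21.3 and 23.99 CPM in RF1 and 14.5, 13.4, 14.7, 14.2 and 14.2 CPM in RF3. At TP1 all RF1 libraries were thus above all RF3 libraries, and at TP2 they were below them save for 1 RF1 library that reached the lowest of RF3. RF1 over RF3 was -0.34 ± 0.08 (FDR = 0.000335) at TP2 on the log2 scale, with its SE, and 0.62 ± 0.07 (FDR = 7.8e-10) at TP1, with 5 libraries per RF in this and the following edgeR tests. The interaction FDR was 2.07e-13. At TP1 the peak was also higher in RF1 than in RF4 (0.74 ± 0.07) and RF5 (0.61 ± 0.07). Over the RFs it averaged 17.2 ± 1.72 CPM (n = 5) in RF1, 19.7 ± 1.08 CPM (n = 3) in RF2, 22.1 ± 2.33 CPM (n = 3) in RF3, 16.1 ± 0.806 CPM (n = 3) in RF4 and 21.5 ± 0.751 CPM (n = 4) in RF5 at TP2, and 21.7 ± 2.88 CPM (n = 5) in RF1, 18.01 ± 1.66 CPM (n = 5) in RF2, 14.1 ± 0.614 CPM (n = 3) in RF3, 13.2 ± 1.16 CPM (n = 4) in RF4 and 14.2 ± 1.15 CPM (n = 4) in RF5 at TP1, each with its SD. At TP2 no neighbours in the order of the means passed the test, and at TP1 RF1 differed from RF2 and RF2 from RF5.

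Over the whole of Ntng1 the medians had the same signs. At TP2 none of the 24 was a DAR higher in RF1 than in RF3 and 2 were lower (4.54% and 5.59% of all peaks), with a median log2 fold change of -0.25, against -0.01 over all peaks. The 2 lower peaks became 0 without replicate 1 or replicate 4, 1 without replicate 2 or with libraries within sampling noise summed, 4 without replicate 5 and 6 without the 3 libraries that stand apart. Over all peaks, the share of DARs of RF1 and RF3 in either direction was 10.1% at TP2. It was 4.78% without replicate 1, 6.80% without replicate 4 and 4.24% without replicate 2. With libraries summed it was 7.46%, without replicate 5 18.1% and without the 3 libraries 21.9%. At TP1 9 were higher and none lower (10.6% and 9.50% of all peaks), with a median of 0.48, against 0.01. RF1 was also higher than RF5 at 11 peaks at TP1 (12.9% of all peaks), and RF3 higher than RF4 at 6 at TP2 (6.62%). The most open peak (chr3:109780974-109783990), at the far end of the gene, had 21.8 to 32.2 CPM in RF1 and 15.04 to 17.03 CPM in RF5 at TP1, a log2 fold change of 0.69 ± 0.08, and no DAR at TP2. At chr3:109902559-109903804 the TP1 difference was the largest of the named peaks of the 5 genes, with 3.92 to 5.73 CPM in RF1 and 2.03 to 2.75 CPM in RF5, without overlap, and 1.05 ± 0.12 on the log2 scale. This peak and chr3:109923452-109925244 were higher in RF1 than in each other RF at TP1, and the second was also higher in RF1 than in RF4 at TP2 (0.56 ± 0.10). The first was lower in RF4 than in RF5 at TP2 (-0.72 ± 0.14). Of the remaining named peaks, chr3:109916949-109919671 was higher in RF1 than in RF5 at TP1 (0.88 ± 0.07), with no DAR at TP2, and chr3:110092782-110095639 was a DAR in both directions, RF1 over RF3 being -0.52 ± 0.12 at TP2 and 0.65 ± 0.10 at TP1.

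Lrrc4c, on chromosome 2, codes for the ligand of netrin-G1, and its promoter had the same signs between RF1 and RF3 as that of Ntng1, lower in RF1 at TP2 and higher at TP1. The study itself singled this gene out on the same libraries, so its values are not independent of that choice. At the promoter peak (chr2:96316696-96320295) the libraries had 14.1, 15.6, 18.5, 14.9 and 19.9 CPM in RF1 and 20.9, 22.05, 23.2, 20.4 and 21.01 CPM in RF3 at TP2, and 23.3, 18.5, 16.9, 20.9 and 23.2 CPM in RF1 and 15.7, 15.9, 13.8, 13.2 and 12.5 CPM in RF3 at TP1. These RFs did not overlap at either time point, and their order turned round. RF1 over RF3 was -0.39 ± 0.08 (FDR = 6.03e-05) at TP2, short of the fold of a DAR, and 0.53 ± 0.07 (FDR = 1.8e-08) at TP1, with an interaction FDR of 2.66e-11. RF1 over RF4 was -0.05 ± 0.08 (FDR = 0.814) at TP2 and 0.56 ± 0.07 (FDR = 2.18e-09) at TP1. The means were 16.6 ± 2.48 CPM (n = 5) in RF1, 20.1 ± 3.04 CPM (n = 3) in RF2, 21.4 ± 1.06 CPM (n = 3) in RF3, 16.5 ± 0.875 CPM (n = 3) in RF4 and 21.9 ± 0.387 CPM (n = 4) in RF5 at TP2, and 20.5 ± 2.85 CPM (n = 5) in RF1, 16.4 ± 1.27 CPM (n = 5) in RF2, 14.9 ± 1.504 CPM (n = 3) in RF3, 14.2 ± 1.05 CPM (n = 4) in RF4 and 15.7 ± 0.872 CPM (n = 4) in RF5 at TP1. Among neighbours in these orders, only RF1 and RF2 at TP1 differed past the threshold.

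**Figure D2:**
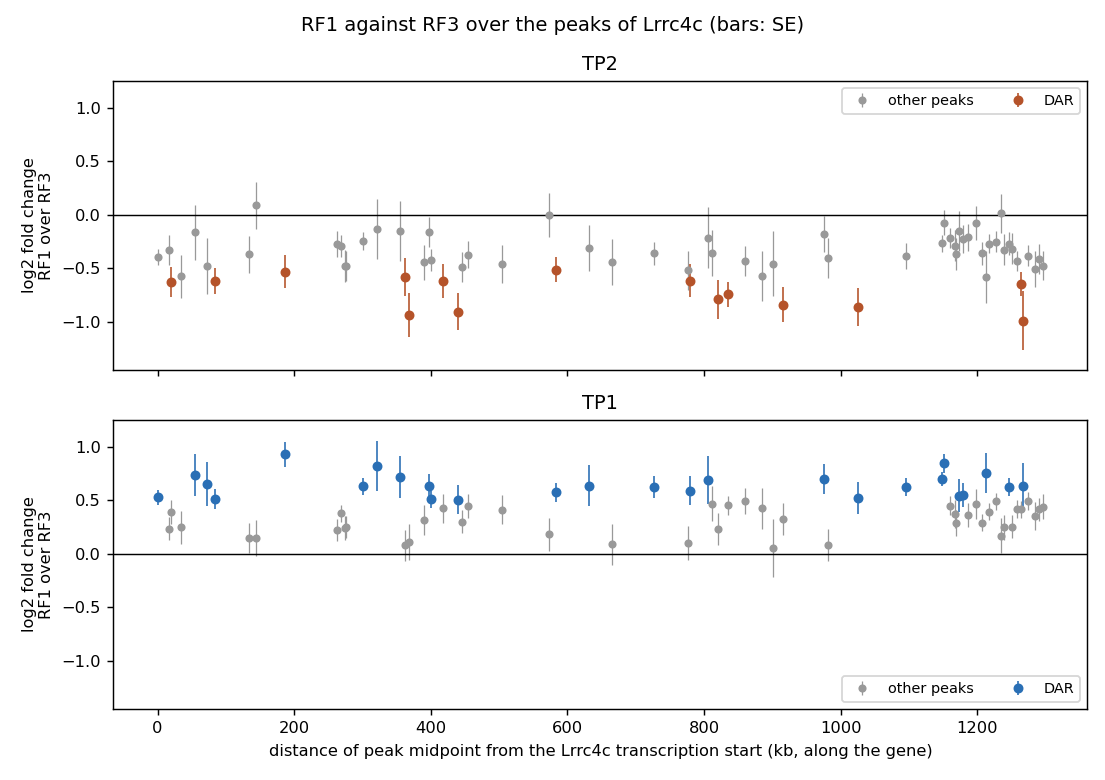
Log2 fold change of RF1 over RF3 (y axis) for the 70 peaks of Lrrc4c against the distance of each from the transcription start in kb (x axis), at TP2 (top) and TP1 (bottom). Bars are SEs and coloured points are DARs. The 15 DARs at TP2 all lie below 0 and the 26 DARs at TP1 all lie above 0, spread along the gene.

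Along Lrrc4c, 68 of 70 peaks had a negative log2 fold change of RF1 against RF3 at TP2 and all 70 a positive one at TP1. Of the 38 other peaks within 1 Mb, 38 were negative at TP2 and 37 positive at TP1. Of the 11481 tested peaks of chromosome 2, 5561 were negative at TP2 and 5657 positive at TP1. DARs in Lrrc4c were 15 peaks at TP2, all lower in RF1 (5.59% of all peaks, median of the 70 -0.39), and 26 at TP1, all higher in RF1 (10.6% of all peaks, median 0.43). At 7 of the Lrrc4c peaks both were called, 46.7% of those at TP2 and 26.9% of those at TP1. A DAR of RF1 and RF3 at both time points was also found at 2 of 24 peaks of Ntng1. It was found at 1 of 12 of Ntng2, 2 of 6 of Lrrc4b and 0 of 3 of Lrrc4. The rate of such double calls over all peaks was not worked out, so whether 7 is many is not known. The number of DARs moved when the libraries of 1 replicate number were left out in every RF, and at TP2 it was 7 without replicate 1, 9 without replicate 2, 23 without replicate 5 and 30 without the 3 libraries that stand apart. The share of all peaks, in either direction, moved the same way, from 10.1% to 4.78%, 4.24%, 18.1% and 21.9%. At TP1 the number for Lrrc4c was 16 without replicate 4, 15 without replicate 5 and 17 with libraries within sampling noise summed. The share of all peaks then went from 20.1% to 17.8%, 14.4% and 17.6%. DARs were also found in further pairs, with RF1 lower than RF5 at 6 peaks at TP2 (2.44% of all peaks) and RF3 higher than RF4 at 9 at TP2 (6.62%). At TP1, RF1 was higher than RF5 at 17 peaks (12.9% of all peaks) and than RF4 at 12 (11.4%).

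Single peaks of Lrrc4c kept their own shape. The most open one (chr2:97465873-97467905), near the far end, had 18.6 to 28.3 CPM in RF1 and 24.4 to 27.3 CPM in RF3 at TP2, which overlap, and 27.5 to 37.2 CPM in RF1 and 19.4 to 20.96 CPM in RF3 at TP1, which do not. RF1 over RF3 was -0.27 ± 0.08 at TP2 and 0.70 ± 0.07 at TP1, and RF1 over RF4 was 0.85 ± 0.07 at TP1. At chr2:97042983-97046214 the largest difference was at TP2, between RF3 (9.43 to 11.9 CPM) and RF4 (5.14 to 5.92 CPM), 0.91 ± 0.11 (FDR = 8.88e-10) on the log2 scale, and RF1 was also higher than RF4 (0.55 ± 0.11). RF1 over RF3 and RF1 over RF4 at TP1 were 0.63 ± 0.08 and 0.63 ± 0.07 at chr2:96618017-96620104, and 0.85 ± 0.09 and 0.65 ± 0.09 at chr2:97468408-97469683. Neither of these peaks was a DAR of RF1 and RF3 at TP2.

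Ntng2, on the same chromosome as Lrrc4c, codes for netrin-G2, and its promoter was less open in RF1 than in RF3 at TP1, opposite in sign to Ntng1 and Lrrc4c. At its promoter peak (chr2:29245245-29247395), which also overlaps 6530402F18Rik, the libraries had 10.3, 10.9, 7.40, 8.74 and 6.68 CPM in RF1 and 7.98, 7.81, 7.09, 6.54 and 6.52 CPM in RF3 at TP2, and 7.79, 8.96, 9.77, 8.32 and 6.33 CPM in RF1 and 12.2, 12.4, 13.1, 13.2 and 13.4 CPM in RF3 at TP1. RF1 was below RF3 in every library at TP1, and the RFs overlapped at TP2. RF1 over RF3 was 0.32 ± 0.11 (FDR = 0.0232) at TP2, which missed the threshold, and -0.63 ± 0.08 (FDR = 7.37e-10) at TP1, with an interaction FDR of 1.05e-10. The means were 8.81 ± 1.81 CPM (n = 5) in RF1, 9.35 ± 1.51 CPM (n = 3) in RF2, 7.32 ± 0.736 CPM (n = 3) in RF3, 10.6 ± 1.77 CPM (n = 3) in RF4 and 7.15 ± 0.429 CPM (n = 4) in RF5 at TP2, and 8.23 ± 1.29 CPM (n = 5) in RF1, 9.9995 ± 0.818 CPM (n = 5) in RF2, 12.6 ± 0.549 CPM (n = 3) in RF3, 9.80 ± 0.0681 CPM (n = 4) in RF4 and 11.2 ± 0.656 CPM (n = 4) in RF5 at TP1, and of neighbours in these orders RF1 and RF4 at TP1 differed past the threshold.

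Over the 12 peaks of Ntng2 the median of RF1 over RF3 was 0.35 at TP2, all positive, and -0.48 at TP1, all negative. DARs were 2 peaks at TP2, higher in RF1, and 4 at TP1, lower in RF1 (4.54% and 9.50% of all peaks). At TP2 the count was 1 without replicate 2, 4 without replicate 5 and 4 without the 3 libraries that stand apart, and at TP1 it was 7 without replicate 3. The share of all peaks, in either direction, was then 4.24%, 18.1% and 21.9% at TP2 (10.1% with all libraries) and 24.8% at TP1 (20.1%). RF1 was also lower than RF5 at 5 peaks at TP1 (9.52% of all peaks). The most open peak (chr2:29190358-29193620), past the end of the gene, had 13.3 to 19.7 CPM in RF1 and 8.90 to 13.9 CPM in RF3 at TP2, and 9.98 to 14.3 CPM in RF1 and 15.7 to 18.3 CPM in RF3 at TP1. Within the gene, chr2:29216446-29219237 was higher in RF1 than in RF5 at TP2 (0.68 ± 0.13), with RF1 libraries spread over 4.81 to 11.1 CPM, and lower at TP1 (-0.69 ± 0.08). At chr2:29235160-29236664 RF1 over RF3 was 0.54 ± 0.12 at TP2 and -0.57 ± 0.08 at TP1, a DAR in both directions.

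Lrrc4, which codes for the ligand of netrin-G2 and lies within the span of Snd1 on chromosome 6, was more open in RF1 than in RF4 at TP1 at its promoter, while Ntng2 was -0.24 ± 0.08 there (FDR = 0.0063), lower in RF1. Its promoter peak (chr6:28831414-28834161), the most open of the member peaks, had 39.99, 37.5, 52.8, 46.6 and 55.2 CPM in RF1 and 41.6, 38.4, 42.6, 37.4 and 42.998 CPM in RF4 at TP2, which overlap. At TP1 it had 59.4, 66.5, 58.4, 59.01 and 65.9 CPM in RF1 and 33.5, 35.2, 34.8, 38.1 and 33.1 CPM in RF4, which do not. In these libraries the summed promoters of astrocytes were 22.4 CPM in RF1 and 14.4 CPM in RF4. Those of neurons were 183 and 146 CPM, and those of hippocampal neurons 68.4 and 52.6 CPM. RF1 over RF4 was 0.17 ± 0.07 (FDR = 0.148) at TP2 and 0.83 ± 0.06 (FDR = 4.66e-18) at TP1, with an interaction FDR of 5.96e-10. RF1 over RF3 was 0.13 ± 0.07 (FDR = 0.135) at TP2 and 0.44 ± 0.06 (FDR = 9.12e-09) at TP1. The means were 46.4 ± 7.71 CPM (n = 5) in RF1, 47.3 ± 7.36 CPM (n = 3) in RF2, 42.1 ± 2.06 CPM (n = 3) in RF3, 40.1 ± 2.36 CPM (n = 3) in RF4 and 53.3 ± 0.538 CPM (n = 4) in RF5 at TP2, and 61.8 ± 4.01 CPM (n = 5) in RF1, 49.2 ± 3.82 CPM (n = 5) in RF2, 45.2 ± 1.83 CPM (n = 3) in RF3, 35.1 ± 2.04 CPM (n = 4) in RF4 and 46.2 ± 2.77 CPM (n = 4) in RF5 at TP1, where RF1 differed from RF2 and RF3 from RF4. The peak at chr6:28828504-28829051, inside the gene, was higher in RF1 than in RF4 at TP1 (0.56 ± 0.08, interaction FDR 0.162), and chr6:28826019-28827912, past its end, was no DAR. None of these peaks was a DAR at TP2.

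Lrrc4b, on chromosome 7, which codes for the NGL that binds the LAR phosphatases, was more open in RF1 than in RF3 at TP2 at its promoter, and less open at TP1. The promoter peak (chr7:44441319-44444114) had 37.6, 38.8, 33.3, 36.1 and 27.9 CPM in RF1 and 20.5, 23.3, 20.4, 20.7 and 24.2 CPM in RF3 at TP2, without overlap. At TP1 it had 24.9, 38.8, 45.1, 31.6 and 24.6 CPM in RF1 and 43.8, 43.4, 44.1, 49.2 and 44.7 CPM in RF3, with 1 library of RF1 among those of RF3 and the other RF1 libraries below them. RF1 over RF3 was 0.68 ± 0.07 (FDR = 6.98e-11) at TP2 and -0.46 ± 0.08 (FDR = 1.23e-05) at TP1, with an interaction FDR of 2.79e-10. RF3 was the lowest RF at TP2, with means of 34.7 ± 4.32 CPM (n = 5) in RF1, 33.01 ± 3.71 CPM (n = 3) in RF2, 21.6 ± 1.02 CPM (n = 3) in RF3, 34.01 ± 2.09 CPM (n = 3) in RF4 and 27.8 ± 1.63 CPM (n = 4) in RF5, and the highest at TP1, with 33.002 ± 8.88 CPM (n = 5) in RF1, 36.2 ± 1.81 CPM (n = 5) in RF2, 44.4 ± 1.38 CPM (n = 3) in RF3, 33.03 ± 3.62 CPM (n = 4) in RF4 and 42.3 ± 2.65 CPM (n = 4) in RF5. All 6 peaks of the gene were DARs lower in RF3 than in RF4 at TP2 (4.48% of all peaks, median -0.70), and 5 were higher in RF1 than in RF3 (4.54% of all peaks, median 0.62). At TP1, 3 were lower in RF1 than in RF3 (9.50% of all peaks), chr7:44445409-44446348 (-0.54 ± 0.10), chr7:44447303-44447987 (-0.59 ± 0.10) and chr7:44451092-44454254 (-0.60 ± 0.08), of which the last 2 also overlap Gm39003. This count was 5 without replicate 2 or replicate 3 and 1 without replicate 5. Over all peaks, DARs of RF1 and RF3 in either direction were 20.1% at TP1, 21.7% without replicate 2, 24.8% without replicate 3 and 14.4% without replicate 5. The RF1 libraries spread widely there, since the 6 peaks summed to 62.3 to 114 CPM in RF1 and 109 to 121 CPM in RF3. The peak at chr7:44447303-44447987 was also higher in RF4 than in RF5 at TP2 (0.87 ± 0.13), and chr7:44461736-44462899 and chr7:44464247-44465420 were higher in RF1 than in RF3 at TP2 (0.76 ± 0.11 and 0.57 ± 0.07) and were no DARs at TP1.

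**Figure D3:**
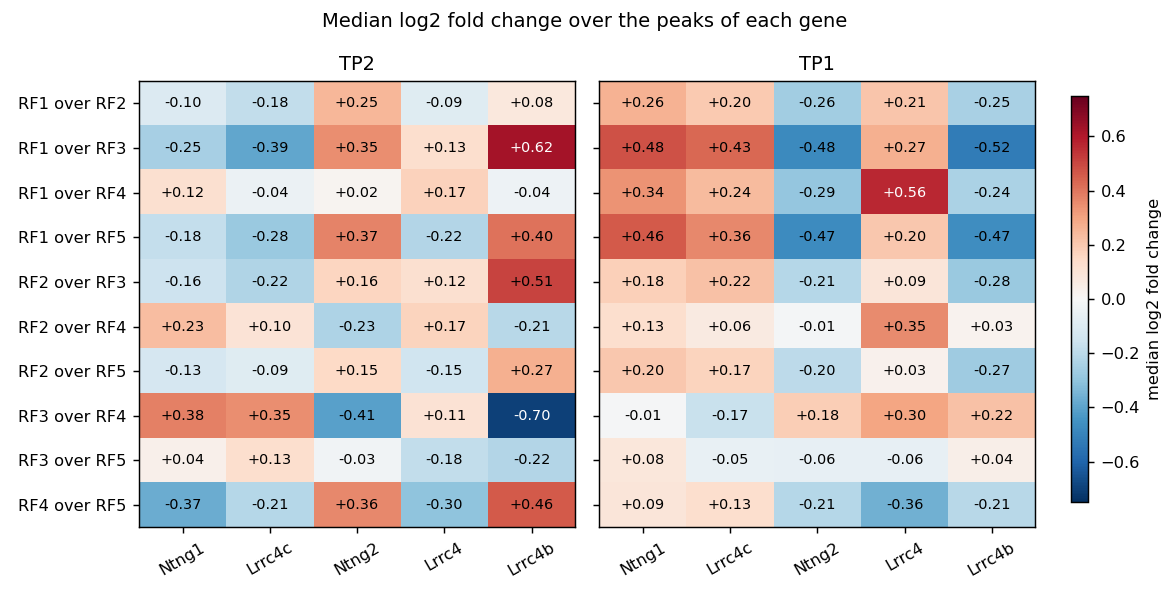
Median log2 fold change over the tested peaks of each gene (columns) for each of the 10 pairs of RFs (rows), at TP2 (left) and TP1 (right), with red for higher in the first-named RF. In the row of RF1 over RF3, Ntng1 and Lrrc4c share their sign at TP2 (-0.25 and -0.39) and at TP1 (0.48 and 0.43), and Ntng2 and Lrrc4b have the opposite sign at both.

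The promoter peaks of Ntng1 and Lrrc4c, on different chromosomes, varied together over the 10 group means of log2 CPM (Pearson's r = 0.957), as did those of Ntng2 and Lrrc4b (r = 0.921). Ntng2 and its ligand gene Lrrc4 had an r of -0.266, and Ntng1 and Ntng2 of -0.808. These values describe 10 means that share their libraries and scaling. Likeness of this size also occurred outside the family. Among promoter peaks of protein-coding genes on other chromosomes, those most like Ntng1 were of Nyap2 (r = 0.986), Vps41 (0.981) and Pir (0.981), of 11343 compared. For Lrrc4c they were of Itgb3bp (0.984), Calhm5 (0.974) and Erap1 (0.973), and for Ntng2 of Tmem53 and Armh1, which share a peak (0.978), and Adm (0.976). For Lrrc4 they were of Tspan5 (0.990) and of Atp5j and Gabpa, which share a peak (0.988), and for Lrrc4b of Prdx5 and Trmt112, which share a peak (0.994), and Vars2 (0.994).

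The surroundings of each gene had the sign of its own median, save those of Lrrc4 at TP2, where the peaks of the gene had a median of 0.13. For RF1 over RF3, the 38 other peaks within 1 Mb of Lrrc4c had a median log2 fold change of -0.63 at TP2 and 0.47 at TP1, while all peaks of chromosome 2 had 0.02 and -0.01. Around Ntng2, on that chromosome, the 222 other peaks had medians of 0.38 at TP2 and -0.44 at TP1, so that both neighbourhoods matched their gene in sign. The 179 other peaks near Lrrc4b had 0.58 and -0.57, and chromosome 7 as a whole 0.33 and -0.40. The 92 other peaks near Ntng1 had -0.27 and 0.30, and the 204 near Lrrc4 -0.07 and 0.13. The regions differed in their genes, with 112 other protein-coding genes within 1 Mb of Lrrc4b, 40 near Ntng2, 26 near Lrrc4, 10 near Ntng1 and 0 near Lrrc4c.

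**Figure D4:**
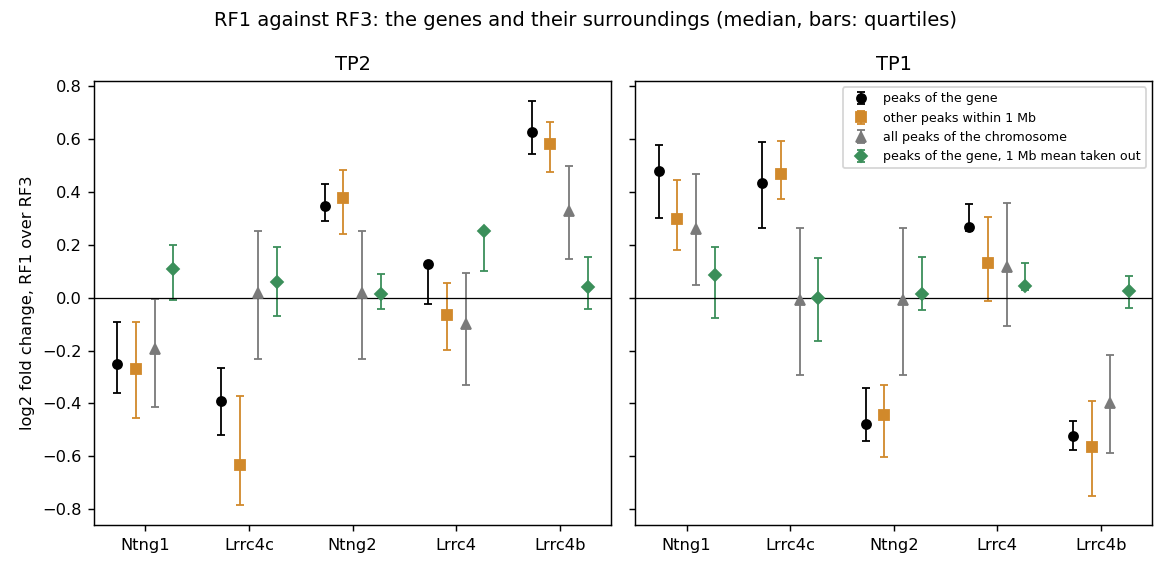
Log2 fold change of RF1 over RF3 (y axis) for the 5 genes (x axis) at TP2 (left) and TP1 (right), as medians with quartile bars over the peaks of the gene, the other peaks within 1 Mb, all peaks of the chromosome, and the peaks of the gene after the mean of each 1 Mb region was taken out. For Lrrc4c the median of the gene is -0.39 at TP2 and 0.43 at TP1, and 0.06 and 0.00 after that step.

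When the mean deviation of each 1 Mb region was taken out of every library, 4 member peaks were DARs at TP2 and 7 at TP1, against 3.33% and 19.5% of all peaks. Between RF1 and RF3, Lrrc4c then had 0 at TP2 and 1 at TP1, against 0.820% and 3.17% of all peaks. The peaks of Lrrc4c fill most of the regions they lie in, so this step also takes out a change that runs over the whole gene. Some differences of single peaks remained past the thresholds. The promoter of Lrrc4 was still higher in RF1 than in RF4 at TP1, by 0.64 on the log2 scale, and so was the most open peak of Lrrc4c, by 0.60. At chr2:97042983-97046214 in Lrrc4c, RF3 over RF4 was 0.55 at TP2, and at chr3:109902559-109903804 in Ntng1, RF1 over RF5 was 0.62 at TP1.

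Genes that act with or resemble the members were followed in 3 lists. The first held binding partners: the LAR phosphatases Ptprf, Ptprd and Ptprs, the scaffold genes Dlg4 and Dlg3, and Whrn, which codes for whirlin. In all 3 lists, DARs of RF1 and RF3 are to be read against their shares over all peaks, 4.54% higher and 5.59% lower at TP2 and 10.6% higher and 9.50% lower at TP1. Of its 184 peaks, 7 were higher and 25 lower in RF1 than in RF3 at TP2 (median log2 fold change -0.30), and 37 were higher and 4 lower at TP1 (median 0.32). The long gene Ptprd gave 24 of the lower peaks at TP2 and 37 of the higher ones at TP1. The other partners of NGL-3 ran against it, with medians of 0.35 at TP2 and -0.45 at TP1 for Ptprf and of 0.46 and -0.32 for Ptprs, as did Dlg4 (0.48 and -0.31). At the promoter of Ptprs, RF2 over RF3 was 0.56 ± 0.06 at TP2 and RF1 over RF4 0.50 ± 0.06 at TP1. Whrn gave 0.65 ± 0.07 for RF1 over RF4 at TP1, and the promoter of Ptprf depended on RF at both time points with no DAR.

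The second list held 20 other synaptic adhesion genes with leucine-rich repeats, of the Lrrtm, Slitrk, Lrfn, Flrt and Elfn families. Of 204 peaks, 12 were higher and 8 lower in RF1 than in RF3 at TP2 (median -0.15), and 42 were higher and 14 lower at TP1 (median 0.31). At TP2, RF1 was higher than RF3 at the promoters of Lrfn4 (0.68 ± 0.06) and Lrfn3 (0.60 ± 0.09). At TP1, RF1 was higher than RF4 at those of Slitrk5 (1.07 ± 0.06), Slitrk3 (0.99 ± 0.07) and Lrfn5 (0.93 ± 0.06). The third list held the classical netrins and their receptors. Of 189 peaks, 4 were higher and 17 lower in RF1 than in RF3 at TP2 (median -0.24), and 30 were higher and 11 lower at TP1 (median 0.27). The netrin receptor gene Dcc, another long gene, gave 7 of the lower peaks at TP2 and 13 of the higher ones at TP1. At the promoter of Ntn3, RF1 over RF3 was 0.81 ± 0.10 at TP2, and at that of Ntn5 it was 0.56 ± 0.07 at TP2 and -0.67 ± 0.08 at TP1. At TP1, RF1 over RF4 was 1.10 ± 0.07 at the promoter of the receptor gene Unc5c and 0.52 ± 0.07 at that of Unc5a.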

How the data were processed

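The authors made ATAC-seq libraries of sorted NeuN+ nuclei from 50 mice, trimmed the reads, aligned them with Bowtie2 to GRCm38, marked duplicates with Picard 1.140, called peaks per library with MACS2 2.1.4, kept those found in 3 or more libraries of a group, merged them and counted reads per merged peak. The deposited raw counts are not normalized. The deposited peak lists give a -log10 p-value and -log10 q-value per peak, and only their positions were used, to count the libraries with a call. The deposited list of merged peaks gives the number of groups that hold each. The deposited normalized table equals the raw counts and was left out. All 50 sample columns were used.

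All peaks were tested in R 4.3.3 with robust quasi-likelihood F-tests of edgeR 4.0.16, after TMM scaling and filterByExpr by group. Each TP had its own model, with terms for RF and for replicate number. That number was assumed to stand for the sorting batch, which the labels do not give. The interaction was tested over both TPs, with replicate number within TP. The titles do not say which mice of the 2 TPs were littermates, and this pairing was not modelled. FDRs are Benjamini-Hochberg values over all peaks, per pair of RFs. SEs come from the fold change and its F value. The scripts were tested on simulated data. Libraries counted as 1 sample differed, over peaks of 500 to 5000 mean counts, by at most 2% more than sampling would give if each read pair gave 2 counts. By the labels each library is 1 mouse, so errors are too small where libraries share material. Alternatives were RLE size factors, DESeq2 1.42.0, no filter, no replicate block, summed libraries, left-out libraries, a 1 Mb regional offset and a loess offset.

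Genes and promoter windows are from RefSeq for GRCm38.p6. A promoter peak is the nearest one within 2 kb of the transcription start. Per gene, the named peaks are the promoter peak, the most open peak, the 3 of smallest RF p at each TP and the 2 of smallest interaction p, or all where a gene has 6 or fewer. Per list, up to 3 promoter peaks of smallest RF p at each TP are named. Likeness used log2 CPM with a pseudocount of 0.1. The members and lists were chosen with earlier results of these data known. One gene of the lists is not reported here.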

Additional observations from a re-analysis of the deposited data

Results flagged for a closer look

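In 3 of the 100 groups of 5 libraries examined, 1 library lay far from the other 4, and chance gives about 1 in 20. The summed Lrrc4c peaks of RF5 at TP1 were 298 CPM in replicate 1 and 256 to 262 CPM in the others. The summed Ntng2 peaks of RF2 at TP1 were 103 CPM in replicate 2 and 91.8 to 92.3 CPM in the others. The Lrrc4b promoter peak of RF3 at TP1 had 49.2 CPM in replicate 4 and 43.4 to 44.7 CPM in the others.

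The differences between RFs changed with time point at 15 of the peaks examined, by the interaction test of edgeR over all peaks. Of all peaks, 54.4% had an interaction FDR below 0.01. The peaks of Ntng1, Lrrc4c and Ntng2 given here besides the promoters were among those picked for a small interaction p. Their low FDRs thus follow from that choice. The promoters, and all peaks of Lrrc4 and Lrrc4b, were examined whatever their p. The FDR was 2.07e-13 at the promoter of Ntng1 and 3.51e-13 at chr3:109916949-109919671 in the same gene. At Lrrc4c it was 2.66e-11 at the promoter and 6.05e-12 at chr2:97465873-97467905. At Ntng2 it was 1.05e-10 at the promoter, 2.31e-11 at chr2:29190358-29193620 and 1.58e-11 at chr2:29216446-29219237. At Lrrc4 it was 5.96e-10 at the promoter and 0.00179 at chr6:28826019-28827912. At Lrrc4b it was 2.79e-10 at the promoter and, in the order of their positions, 1.88e-12, 5.75e-11, 9.63e-09, 3.54e-11 and 4.5e-12 at the other peaks.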

How the results depend on the processing

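Counts moved most when the 1 Mb regional mean was taken out. RF dependence was then found at 6 member peaks at TP2 and 35 at TP1, a DAR at 4 and 7, and an interaction at 19, and 7 of the pairwise folds of the named peaks were DARs, against 79. Over all peaks, RF dependence held at 9.16% and 45.6%, a DAR at 3.33% and 19.5%, and an interaction at 25.3%. The member shares were 5.22% and 30.4%, 3.48% and 6.09%, and 16.5%, below these save for DARs at TP2. Between RF1 and RF3, Lrrc4c had 0 DARs at TP2 and 1 at TP1, and Ntng1 at TP1, Ntng2 at TP1 and Lrrc4b at both had 0. Of all peaks, 0.820% were such DARs at TP2 and 3.17% at TP1. The folds of RF1 over RF3 at TP2 changed sign at chr3:110092782-110095639 (0.0081), chr7:44447303-44447987 (-0.0533) and chr7:44464247-44465420 (-0.0094). With libraries within sampling noise summed (a fit without the block), RF dependence at TP2 held for 29 peaks, and Lrrc4c had 17 DARs at TP1. Without the 3 TP2 libraries nearest to another RF, 61 member peaks were DARs at TP2 and Lrrc4c had 30. With a loess offset Lrrc4b had 3 at TP2. The cause of these moves was not tested.

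With each replicate number left out, RF dependence was found at 30 to 58 member peaks at TP2 and 58 to 76 at TP1, DARs at 27 to 52 and 47 to 67, and an interaction at 71 to 85, with 71 to 88 folds of named peaks called. Over all peaks, RF dependence ran from 16.1% to 38.9% at TP2 and 47.3% to 58.3% at TP1. DARs ran from 12.5% to 30.3% and 32.7% to 42.7%, and the interaction from 40.8% to 53.9%. DARs of RF1 over RF3 at TP2 were 0 to 4 for Ntng1 and 1 to 4 for Ntng2. They were 7 to 23 at TP2 and 15 to 30 at TP1 for Lrrc4c, 6 to 11 at TP1 for Ntng1, 4 to 7 at TP1 for Ntng2, and 4 to 6 at TP2 and 1 to 5 at TP1 for Lrrc4b. Over all peaks, DARs of RF1 and RF3 in either direction ran from 4.24% to 18.1% at TP2 and from 14.4% to 24.8% at TP1. RLE size factors, DESeq2 and no filter kept each of the member counts within 1.5 times the one reported, and RLE size factors called 80 folds of named peaks.

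Same-numbered libraries of different RFs were checked for deviating together within a time point. The mean correlation was 0.00125 at TP2 (1 of 50 pairs over 0.1) and 0.0575 at TP1 (13 of 50). Of 25 libraries, 4 at TP2 and 10 at TP1 were nearest to their own number. The numbers thus gave no sign of a shared batch at TP2 and a partial one at TP1. Littermates across time points were not checked. With no replicate block, 55 member peaks depended on RF at TP2 and 68 at TP1, 36 and 55 were DARs, 84 had an interaction and 81 folds of named peaks were called. The shares of all peaks were 30.8% and 56.6%, 20.9% and 37.9%, and 53.7%. Libraries held fewer counts at TP2, and how depth bears on the calls was not tested.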
